A study of Homo sapiens with 8 samples.

Results

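Small nucleolar RNAs and small Cajal body RNAs are short non-coding RNAs that guide the chemical modification of other RNAs, and 192 of them were followed here across 2 human lung adenocarcinoma lines and 4 hairpins. The members are the genes whose symbol begins with SNORD, SNORA or SCARNA and which have a probe set naming that gene alone. For each gene the probe set with the highest mean over the 8 arrays was kept, and only 4 members had a second one. They make up 192 of 18404 measured genes and comprise 61 SNORA, 16 SCARNA and 115 SNORD genes. Of the SNORD genes, 46 are copies of the tandem clusters SNORD113 and SNORD114 (6 copies together), SNORD115 (20 copies) and SNORD116 (20 copies). Copies of SNORD115 and of SNORD116 are nearly identical in sequence, so their probe sets are not taken as independent values, and they are described as clusters. SNORD113 and SNORD114 are grouped in the same way, and sequences of the copies were not compared here. The current RefSeq gene table classes 173 members as snoRNA, 16 as ncRNA and 3 as pseudogenes.

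The lines were NCI-H1299 and NCI-H2009, called H1299 and H2009 below. Each line received, by lentivirus, 1 of 2 short hairpin RNAs against PTK7 (PTK7-1 and PTK7-2) or 1 of 2 control hairpins, against GFP and luciferase (LUC). Cells were infected for 2 days, put under puromycin for 2 days and harvested on day 4, controls included. With 1 array for each hairpin and line there were 4 groups of 2 arrays, namely PTK7 hairpins and control hairpins in H1299 and the same pair in H2009. Replicates within a group are different hairpins, and the labels do not mention repeated cultures, so the p-values reflect only how far these arrays lie apart, which may be technical.

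Box C/D RNAs (SNORD) guide methylation of ribosomal RNA on the ribose, and box H/ACA RNAs (SNORA) guide the conversion of uridine to pseudouridine. The SCARNA genes encode relatives that reside in Cajal bodies and mostly act on spliceosomal small nuclear RNAs. In human cells most of these RNAs are cut out of introns of a host gene, often one that encodes a ribosomal protein or a non-coding RNA of the SNHG family. Each mature RNA is held by a set of core proteins, fibrillarin, NOP56, NOP58 and SNU13 for box C/D and dyskerin, NHP2, NOP10 and GAR1 for box H/ACA. The arrays read RNA hybridised to the probe set, and processed small RNA and unprocessed host transcript cannot be told apart in these values. In these bulk samples, fewer cells and less RNA per cell also cannot be told apart.

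Of the 192 members, 174 lie within the span of a single longer gene in the RefSeq table, 16 within several and 2 (SNORD13 and SNORD32B) within none. The starts of 6 host genes that recur below are shown from 70 bases before to 30 bases after the annotated start, on the strand of the gene, from RefSeq GRCh38.p14. SNHG17, RABGGTB, HSPA8, NCL and TBRG4 host members that differed between the PTK7 hairpins, and SNHG14 hosts SNORD116. Many genes for the translation machinery begin with a run of pyrimidines, so capitals mark such a run at the start where it was found.
SNHG17: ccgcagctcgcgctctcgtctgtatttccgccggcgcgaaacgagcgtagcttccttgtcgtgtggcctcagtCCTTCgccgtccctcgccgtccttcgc
RABGGTB: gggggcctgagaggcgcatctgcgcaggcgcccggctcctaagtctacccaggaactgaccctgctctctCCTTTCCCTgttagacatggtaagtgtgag
HSPA8: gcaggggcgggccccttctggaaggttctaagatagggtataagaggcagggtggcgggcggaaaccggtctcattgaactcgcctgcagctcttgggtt
NCL: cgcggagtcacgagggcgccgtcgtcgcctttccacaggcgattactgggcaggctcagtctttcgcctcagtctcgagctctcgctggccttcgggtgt
TBRG4: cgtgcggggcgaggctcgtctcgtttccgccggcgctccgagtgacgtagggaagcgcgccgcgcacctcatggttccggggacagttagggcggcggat
SNHG14: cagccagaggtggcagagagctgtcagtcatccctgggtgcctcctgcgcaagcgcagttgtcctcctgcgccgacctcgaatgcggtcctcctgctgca

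These windows lie at chr20:38435299-38435398 on the minus strand for SNHG17, chr1:75786186-75786285 on the plus strand for RABGGTB and chr11:123062107-123062206 on the minus strand for HSPA8. Those of NCL and TBRG4 are chr2:231464455-231464554 and chr7:45111668-45111767, both on the minus strand, and that of SNHG14 is chr15:24823538-24823637 on the plus strand. The motif searched was a C followed by 4 letters that are each C or T, beginning no more than 5 bases from the annotated start, on the strand of the gene only. No other motif was searched. It was present at SNHG17 and RABGGTB and was not found in this window at HSPA8, NCL, TBRG4 or SNHG14. RefSeq start windows were available for 75 of the 91 single host genes, some with more than 1 start, and 38 of their 96 windows (39.6%) held the motif, against 21.1% of all 35116 windows in the table. Among hosts of the members that differed between the PTK7 hairpins, 8 of 12 windows (66.7%) held it. These shares describe the letters at the starts and were not tested.

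The 8 arrays had medians between 5.31 and 5.41 on the RMA log2 scale, correlated at r = 0.981 to 0.997 within a group, and no pair was identical. PTK7 itself read 5.63 and 5.53 with the PTK7 hairpins and 5.73 and 6.03 with the control hairpins (GFP, LUC) in H1299, and 5.63 and 5.94 against 6.64 and 6.86 in H2009. Both PTK7 arrays lay below both control arrays in each line, while the averaged difference of -0.63 ± 0.12 (standard error of the fit, as after every ± below unless marked SD) missed the 0.05 threshold once adjusted (limma adjusted p = 0.19). Of the epithelial markers, EPCAM read 3.32 to 3.58 in H1299 against 11.17 to 11.30 in H2009, and CDH1 read 3.92 to 4.19 in H1299 against 11.17 to 11.43 in H2009. KRT18 read 10.56 to 11.61 in H1299 and 11.26 to 11.42 in H2009. Of 3 lung adenocarcinoma lineage genes, the surfactant gene SFTPB read 3.94 to 4.37 over all arrays and did not differ at the threshold. The transcription factor NKX2-1 read 4.96 to 5.64 in H1299 against 6.89 to 8.36 in H2009, and NAPSA read 4.31 to 4.72 in H1299 against 5.22 to 6.0 in H2009, and both were lower in H1299 (-2.56 ± 0.23 and -1.0 ± 0.16, limma adjusted p = 0.000163 and 0.00272). Genes typical of blood, connective tissue and vessel cells (10 measured for leukocytes, fibroblasts and endothelium) read no higher than 6.93. That value belonged to the fibroblast genes, while the leukocyte and endothelial genes read no higher than 4.70 and 4.43. Of the 4 fibroblast genes, 1 was lower in H1299 than in H2009 at the threshold.

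The brightest members were near the top of the scale on every array, with SDs over the 4 hairpins of 0.07 to 0.23. These SDs do not show the order of the hairpins. Outside the clusters, all 49 members with a mean above 7.52 were higher with PTK7-1 than with PTK7-2, as described below. SNORA71D, a box H/ACA RNA whose span lies within SNHG17 and 1 further gene, averaged 11.55 ± 0.14 in H1299 and 11.57 ± 0.14 in H2009 (SD over 4 hairpins). SNORD41 averaged 11.63 ± 0.10 and SNORD33, one of 4 members hosted in RPL13A, averaged 11.17 ± 0.23 in H1299, against 11.34 ± 0.07 and 11.05 ± 0.14 in H2009 (SD over 4 hairpins). SNORD13, a box C/D RNA with its own promoter that takes part in small-subunit ribosomal RNA maturation, averaged 11.34 ± 0.17 in H1299 and 10.63 ± 0.15 in H2009. SNORD57, hosted in the gene of the core protein NOP56, averaged 11.14 ± 0.19 and 10.72 ± 0.15 in the same order of lines. At the other end, all SNORD115 copies read between 2.25 and 3.19 on every array, and SNORD113 and SNORD114 copies read between 2.41 and 3.28.

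The first comparison asks whether these RNAs differ after PTK7 knockdown. With both lines averaged, no member passed the threshold of a limma adjusted p under 0.05, and the same was true of all genes (0% called). At an unadjusted p under 0.05 there were 5 members (2.6%), against 9.88% of all genes. When hairpin was added as a block, 0 members passed, against 0.81% of all genes. Of the members, 105 were above 0 (54.7%, against 55.8% of all genes). The median member difference was 0.01 and that of all genes 0.02, both on the log2 scale. The plot of binned differences shows the members centred on the same place as other genes in this comparison. This average pools 2 hairpins for which the median member lay on opposite sides of the controls. Its difference from the control mean was 0.09 with PTK7-1 and -0.20 with PTK7-2 in H1299, and 0.27 and -0.07 in H2009. Opposite shifts cancel in the average and widen the spread within a group. Low counts in the knockdown comparisons therefore do not show that the RNAs were unchanged with either hairpin.

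SNORD38B, a box C/D RNA that guides large-subunit ribosomal RNA methylation, had the smallest p. It read 5.71 and 5.91 with PTK7-1 and PTK7-2 in H1299, against 5.04 with GFP and 5.11 with LUC, and 5.56 and 5.14 in H2009, against 4.84 and 4.95. The PTK7 arrays lay above the control arrays in both lines, and the averaged difference was 0.60 ± 0.12 (limma adjusted p = 0.19). SNORA67, a box H/ACA RNA inside EIF4A1 and its readthrough gene, read 9.40 and 9.31 with the PTK7 hairpins in H1299, against 8.64 and 8.80 with the controls, and 8.91 and 8.59 in H2009, against 8.49 and 8.58. Its groups did not overlap in either line, although in H2009 the nearest PTK7 and control arrays were almost level. Its averaged difference was 0.43 ± 0.10 (limma adjusted p = 0.252). SNORA80B in ODC1 and SNORA65 in RPL12 had the same arrangement, with averaged differences of 0.39 ± 0.12 and 0.35 ± 0.11. These 4 members are all that had both PTK7 arrays above both control arrays in both lines (2.08%, against 4.93% of all genes). The reverse arrangement was found for SNORD115-4 alone (0.521%, against 4.53%), a copy at 2.34 to 2.62 on all arrays.

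In H1299 alone no member passed the threshold (0.00543% of all genes called), and 7 members had an unadjusted p under 0.05 (3.65%, against 7.48%). With the block the count of members was still 0, against 0.0217% of all genes. In H1299, 69 members were above 0 (35.9%, against 49.4%). SNORD15A, a box C/D RNA of a ribosomal protein S3 (RPS3) intron, stood lowest. It read 6.58 with PTK7-1 and 5.56 with PTK7-2, against 7.49 with GFP and 7.52 with LUC, so the PTK7 arrays lay well below the controls but also apart from each other. Its difference was -1.43 ± 0.29 (limma adjusted p = 0.308). In H2009 the order turned round, with 6.93 and 6.84 under PTK7 hairpins and 6.38 and 6.46 under controls. The H1299 minus H2009 difference of the knockdown effects was -1.90 ± 0.41 for SNORD15A (limma adjusted p = 0.848). Leaving out 1 array changed this, and without the H1299 PTK7-1 array SNORD15A passed both in H1299 (-1.95, limma adjusted p = 0.0139) and in the difference of the effects (-2.41, limma adjusted p = 0.0463). A single remaining PTK7 array in H1299 is then assumed to vary like the other groups. The companion in the same host, SNORD15B, and RPS3 itself are described with the hairpins below.

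In H2009 alone no member passed either (0% of all genes called), and 8 had an unadjusted p under 0.05 (4.17%, against 7.98%). There 121 members were above 0 (63%, against 56.1%). Of the 49 members outside the clusters with a mean level above 7.52, 41 were above 0 in H2009. In H1299, 41 of the 49 were below 0. Of all genes, 56.1% were above 0 in H2009 and 49.4% in H1299, and genes of that level were not counted apart. With 1 array left out at a time, the median over all 192 members ran from -0.07 to 0.27 in H2009. In H1299 it ran from -0.20 to 0.09, so neither sign held throughout. SNORD83B, hosted in RPL3, read 6.31 and 6.62 with the PTK7 hairpins and 5.93 and 5.71 with the controls in H2009, a difference of 0.64 ± 0.18 (limma adjusted p = 0.453). In H1299 it read 6.52 and 6.47 with the PTK7 hairpins and 6.57 and 6.98 with the controls, so the PTK7 arrays were the lower ones there. SNORD78, one of the RNAs of the non-coding host GAS5, showed the same turn, with 9.66 and 9.46 against 9.24 and 9.06 in H2009 and 9.45 and 9.26 against 9.67 and 9.49 in H1299. In all, 7 members had both PTK7 arrays below both controls in H1299 and above both in H2009, which is 3.65% of members, against 3.33% of all genes. No member passed the test of the difference between the lines' knockdown effects (0% of all genes called, and 6 members at an unadjusted p under 0.05, or 3.12%, against 5.17%). That difference was above 0 for 63 members (32.8%, against 45.3%).

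The second comparison asks how far the hairpins against the same gene differ, and here most members lay on one side. PTK7-1 gave higher values than PTK7-2 for 163 of 192 members (84.9%, against 45.5% of all genes), with a median difference of 0.32 on the log2 scale, against -0.02 for all genes. In the limma fit of hairpin and line, 17 members passed the threshold, all higher with PTK7-1 (8.85%, against 3.73% of all genes called, of which 1.94% higher and 1.79% lower). At an unadjusted p under 0.05 there were 73 members (38%, against 18.3%). The 17 were 12 SNORA genes, 4 SNORD genes (SNORD14E, SNORD45C, SNORD51 and SNORD82) and SCARNA10. They made up 12 of 61 SNORA genes, 4 of 69 SNORD genes outside the clusters and 1 of 16 SCARNA genes, while the medians of these classes were alike at 0.41, 0.38 and 0.44. The difference between classes was not tested.

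The count of 17 depended on single arrays, as only 2 arrays stand behind each hairpin. It was 0 without H1299 PTK7-1 (0% of all genes called), without H1299 PTK7-2 (0.527%) or without H2009 PTK7-1 (0.5%), and 23 without H2009 PTK7-2 (5.12%). Leaving out a control array gave 5 (GFP of either line, 1.64% of all genes) or 6 (LUC of either line, 2.07%). The median difference stayed between 0.26 and 0.37 in all of these.

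**Figure D1:**
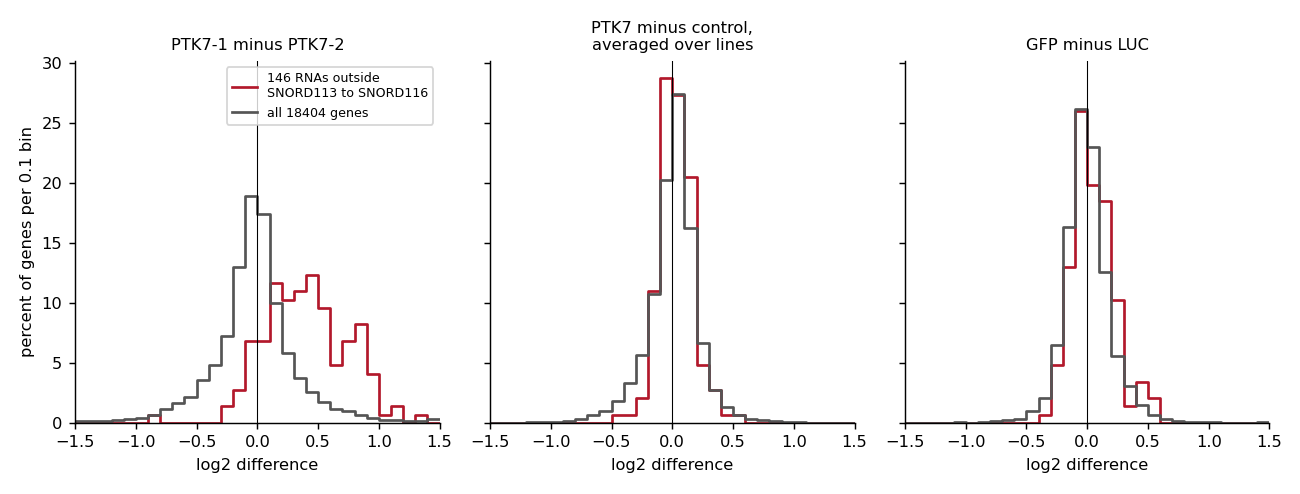
Share of genes (percent, vertical axis) in bins of 0.1 of the log2 difference (horizontal axis), for the 146 RNAs outside SNORD113 to SNORD116 (red) and all 18404 genes (grey), with the end bins also holding values beyond them. For PTK7-1 minus PTK7-2 the red curve lies to the right of the grey one (median 0.39 against -0.02), while for PTK7 minus control and GFP minus LUC both curves centre near 0.

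SNORA22, a box H/ACA RNA, had the largest difference of the 17. It read 9.93 with PTK7-1 and 8.42 with PTK7-2 in H1299, with GFP at 9.69 and LUC at 10.03, and 9.15 and 7.89 in H2009, with 8.43 and 8.53. PTK7-2 was the lowest array in both lines, and in H1299 PTK7-1 lay between the controls. The difference was 1.39 ± 0.23, or 2.62-fold (limma adjusted p = 0.0234). SNORA71A and SNORA71C share the non-coding host SNHG17. SNORA71A read 10.27 and 9.0 in H1299 with PTK7-1 and PTK7-2 (controls 9.80 and 9.66) and 10.19 and 9.12 in H2009 (controls 9.44 and 9.38), a difference of 1.17 ± 0.16 (limma adjusted p = 0.0122). SNORA71C read 10.69 and 9.61 in H1299 (controls 10.30 and 10.39) and 10.51 and 9.87 in H2009 (controls 10.03 and 9.93), a difference of 0.86 ± 0.18 (limma adjusted p = 0.0483). For both, the controls lay between the PTK7 hairpins in each line.

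The same host can also carry RNAs of both classes. EEF1B2, a translation elongation factor gene, hosts the box C/D RNA SNORD51 and the box H/ACA RNA SNORA41. SNORD51 read 5.92 and 4.38 with PTK7-1 and PTK7-2 in H1299 (controls 5.47 and 5.25) and 5.93 and 5.13 in H2009 (controls 5.29 and 5.25), and its difference was 1.17 ± 0.22 (limma adjusted p = 0.034). SNORA41 read 4.42 and 3.81 in H1299 (controls 4.19 and 3.95) and 4.76 and 3.68 in H2009 (controls 4.12 and 4.41), with a difference of 0.84 ± 0.18 (limma adjusted p = 0.0493). RPSA, the gene of a small-subunit ribosomal protein, hosts SNORA62 and SNORA6, which differed by 0.87 ± 0.16 and 0.83 ± 0.15 (limma adjusted p = 0.0345 and 0.0314).

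SNORD45C, a box C/D RNA in RABGGTB, had the smallest p of the 17. It read 7.36 and 6.20 with PTK7-1 and PTK7-2 in H1299 (controls 6.59 and 6.54) and 7.10 and 6.08 in H2009 (controls 6.24 and 6.13). Its difference was 1.09 ± 0.14 (limma adjusted p = 0.0111), and in H2009 PTK7-2 was nearly level with LUC. SCARNA10, which guides both kinds of modification on a spliceosomal small nuclear RNA, read 8.13 and 7.20 in H1299 (controls 7.65 and 7.47) and 6.96 and 6.46 in H2009 (controls 6.79 and 6.67). Its difference was 0.72 ± 0.15 (limma adjusted p = 0.0473). The other 8 of the 17 were SNORA23, SNORA3B, SNORA14B, SNORA14A, SNORA5A, SNORD82, SNORA49 and SNORD14E, with differences from 0.73 to 0.97.

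**Figure D2:**
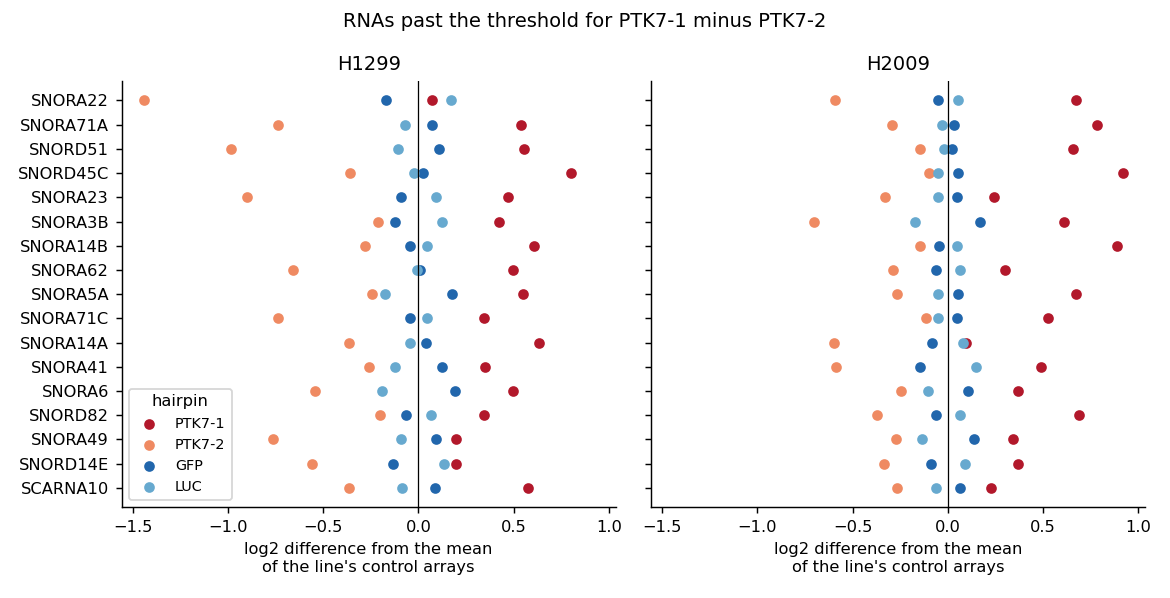
Difference of each array from the mean of its line's control arrays (log2, horizontal axis) for the 17 RNAs past the threshold in PTK7-1 minus PTK7-2 (vertical axis, largest difference at the top), in H1299 (left) and H2009 (right). All PTK7-1 points lie right of 0 and all PTK7-2 points left of it in both lines, with medians of 0.49 and -0.54 in H1299 and 0.52 and -0.29 in H2009. The 17 were picked by this same difference, so PTK7-1 lying right of PTK7-2 largely follows from the choice. Over all 192 members the medians were 0.09 and -0.20 in H1299 and 0.27 and -0.07 in H2009.

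Because the control arrays lie on neither side of the contrast, they show where each hairpin stood. Over all members, the median difference from the mean of the line's controls was 0.09 with PTK7-1 and -0.20 with PTK7-2 in H1299, and 0.27 with PTK7-1 and -0.07 with PTK7-2 in H2009. PTK7-1 lay above both controls in both lines for 68 members (35.4%, against 18% of all genes), and PTK7-2 lay below both in both lines for 51 (26.6%, against 15.2%). Both conditions held for 26 members (13.5%, against 2%), and the opposite pair of conditions for 0 (against 2.86%). Taken 1 line at a time, PTK7-1 lay above both controls for 100 members in H1299 (52.1%, against 36.8%) and for 138 in H2009 (71.9%, against 40%), and below both for 37 (19.3%, against 32.8%) and 25 (13%, against 38.6%). PTK7-2 lay below both controls for 120 members in H1299 (62.5%, against 39.1%) and for 92 in H2009 (47.9%, against 33.5%), and above both for 22 (11.5%, against 34.2%) and 64 (33.3%, against 50.8%).

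The members were also split into equal parts by level. Outside the clusters, all 49 members with a mean above 7.52 were higher with PTK7-1, of which 5 passed. Between 5.3 and 7.52, 45 of 48 were higher and 10 passed, and below that 35 of 49 were higher and 2 passed. The share of all genes that passed also depended on level, at 3.73% over all genes and 8.3% once the dimmest 40% were removed. It was not counted for each of these parts, so the counts by level do not single out the members. No member passed in the other direction. SNORA15, among the dimmest, was the lowest at -0.85 ± 0.33 (limma adjusted p = 0.224), with 3.49 and 4.14 in H1299 for PTK7-1 and PTK7-2 and 3.48 and 4.54 in H2009. SNORD13P1 and SNORA70C followed at -0.25 ± 0.16 and -0.20 ± 0.18, values that did not pass. SNORA15 has a second probe set that was almost as bright, with a mean of 3.75 against 3.77. With PTK7-1 and PTK7-2 this second one read 4.03 and 3.72 in H1299 and 3.69 and 3.76 in H2009. Averaged over both probe sets, the SNORA15 difference was -0.37, so its low value rests on 1 of them.

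Members that share a host are given together, to be read against the 84.9% of all members that were higher with PTK7-1. All 7 RNAs of GAS5 were higher with PTK7-1, by 0.16 to 0.71, and none passed. All 3 of RABGGTB were higher, by 0.50 to 1.09, with 1 past the threshold, and so were all 4 of RPL13A, by 0.13 to 0.78, with none past it. In RPS3, SNORD15A and SNORD15B were higher by 0.56 and 0.58, and neither passed. In TBRG4, SNORA5A was higher by 0.87 ± 0.13 (limma adjusted p = 0.0192), while the lowest of its 3 RNAs differed by -0.03. In RPL3, 1 of 3 RNAs was higher and the range was -0.13 to 0.02.

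The control hairpins were set against each other in the same fit. For GFP minus LUC no member passed (0% of all genes called), 111 were above 0 (57.8%, against 47.2%), the median was 0.03, and 4 members had an unadjusted p under 0.05 (2.08%, against 3.65%). The lowest of these p-values belonged to SNORA33, hosted in RPS12, at 0.42 ± 0.13 (limma adjusted p = 1). SNORA33 read 5.49 with GFP and 5.06 with LUC in H1299, and 4.25 and 3.85 in H2009. Of 24 other small non-coding RNAs on the array (spliceosomal RNAs, vault RNAs, TERC, RMRP and others), 0 passed between the PTK7 hairpins, 14 were higher with PTK7-1, and their median was 0.04. TERC, the telomerase RNA, which itself carries a box H/ACA domain, read 10.00 with PTK7-1 and 8.97 with PTK7-2 in H1299 and 9.58 and 9.23 in H2009, a difference of 0.69 ± 0.19 (limma adjusted p = 0.103).

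Host genes were measured for 88 members in 67 hosts, and they were set beside the RNAs for PTK7-1 minus PTK7-2. The median difference was 0.40 for these members and 0.05 for their hosts, and 69 of 88 members lay above their host. Of the 67 hosts, 4 passed, against 3.73% of all genes called. Of 13 members that passed and had a measured host, 1 had a host that also passed. That host was NCL, the gene of nucleolin, at 1.80 (limma adjusted p = 0.00634), whose RNAs SNORD82, SNORD20 and SNORA75 differed by 0.81 ± 0.16, 0.99 ± 0.38 and 0.83 ± 0.24, and of which SNORD82 passed. In contrast, SNHG17 differed by 0.10 and RABGGTB by 0.06, and EEF1B2 by -0.36, and none of these hosts passed. Across the 88 pairs Pearson r was 0.351, over members that share arrays and in part hosts.

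**Figure D3:**
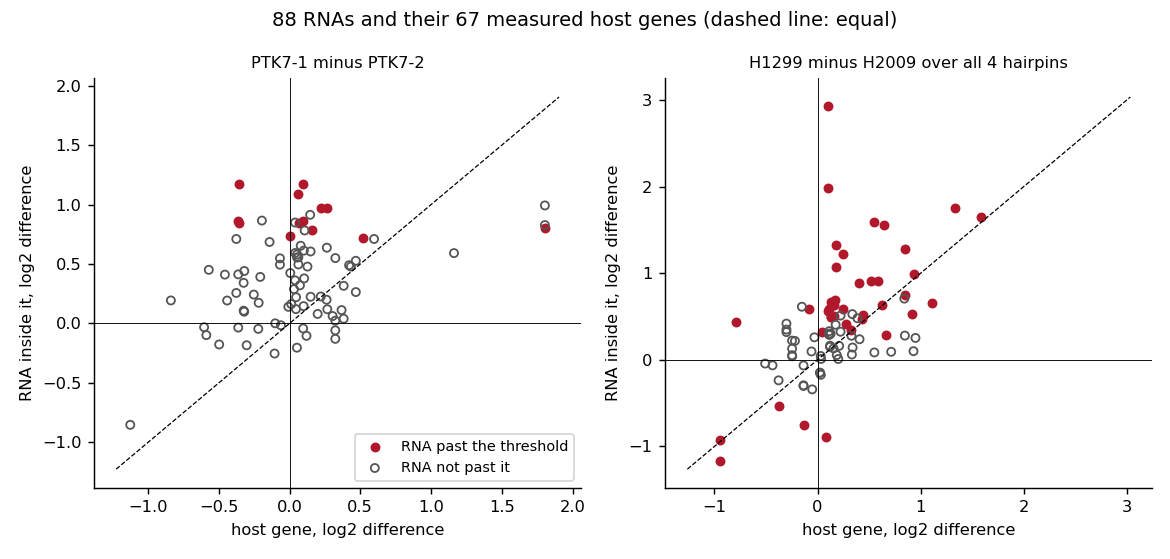
Log2 difference of each RNA (vertical axis) against that of its host gene (horizontal axis) for 88 RNAs with a measured host, for PTK7-1 minus PTK7-2 (left) and H1299 minus H2009 (right), filled where the RNA passed the threshold. In the left panel 69 of 88 points lie above the dashed line of equal difference and 12 of 13 filled points belong to hosts that did not pass.

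Proteins that bind or assemble these RNAs were read from a list of 26 genes, of which 22 were measured. Between the PTK7 hairpins 2 were higher and 2 lower with PTK7-1 at the threshold (3.73% of all genes called), and the median of the list was 0.01. NHP2, a core protein of box H/ACA particles, read 9.45 with PTK7-1 and 7.55 with PTK7-2 in H1299 (controls 9.84 and 9.87) and 8.82 and 6.66 in H2009 (controls 8.80 and 8.61). PTK7-2 was far below the other 3 arrays in both lines, and the difference was 2.03 ± 0.17 (limma adjusted p = 0.00628). NOLC1, a nucleolar and Cajal body phosphoprotein that associates with these particles, was higher with PTK7-1 by 0.73 ± 0.13 (limma adjusted p = 0.0298). The assembly factors SHQ1 and ZNHIT6 were lower with PTK7-1, with differences of -0.88 ± 0.14 and -0.99 ± 0.17 (limma adjusted p = 0.0209 and 0.0235). The other H/ACA core proteins did not pass, with dyskerin (DKC1) at -0.15 ± 0.13, NOP10 at -0.24 ± 0.14 and GAR1 at -0.03 ± 0.13. The part of NHP2 and of these factors in the values of the RNAs was not tested.

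The third comparison sets H1299 against H2009. Over all 4 hairpins, 84 of 192 members passed the threshold, 60 higher and 24 lower in H1299 (43.8%, against 36.2% of all genes called). Outside the SNORD113 to SNORD116 clusters the split was 60 higher and 5 lower among 146 members, or 41.1% and 3.42%, against 19.6% and 16.6% of all genes. The median difference of these 146 was 0.34, against 0.03 for all genes, and 124 of them were higher in H1299 (84.9%, against 54.6%). Under control hairpins alone 61 members passed, 44 higher and 17 lower (31.8%, against 24.8%), and 143 lay above 0 (74.5%, against 58.5%). That count was 32 without H1299 GFP, without H1299 LUC or without H2009 GFP (16.1%, 15.8% and 12.9% of all genes called) and 26 without H2009 LUC (11.9%), and up to 72 without an H1299 PTK7 array (28.8%). A hairpin block raised the counts to 100 over all hairpins (52.1%, against 42.2%) and 82 under controls (42.7%, against 31.3%).

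**Figure D4:**
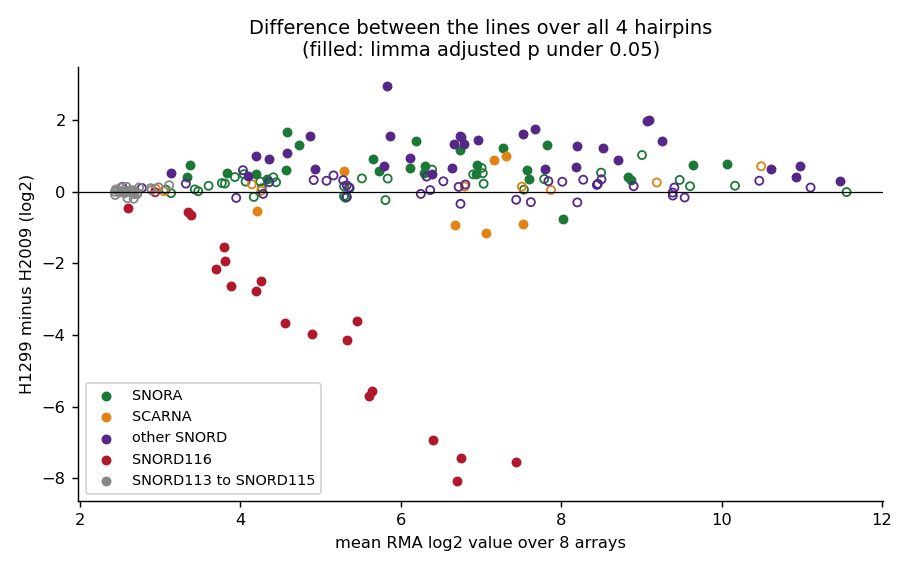
H1299 minus H2009 difference over all 4 hairpins (log2, vertical axis) against the mean level over 8 arrays (RMA log2, horizontal axis) for 192 RNAs, coloured by class and filled where limma adjusted p is under 0.05. SNORD116 copies fall to -8.07, SNORD113 to SNORD115 stay near 0 at the dim end, and most other filled points lie above 0, up to 2.94 for SNORD14E.

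Among RNAs higher in H1299, those of HSPA8, the gene of a constitutive heat shock protein, had the largest differences. SNORD14E read 7.58, 6.83, 7.25 and 7.52 in H1299 with PTK7-1, PTK7-2, GFP and LUC, against 4.72, 4.02, 4.26 and 4.44 in H2009, a difference of 2.94 ± 0.22 or 7.65-fold (limma adjusted p = 6.64e-05). SNORD14C read 10.18, 9.57, 10.25 and 10.35 in H1299, against 8.44, 8.20, 7.83 and 7.93 in H2009, a difference of 1.99 ± 0.15 (limma adjusted p = 6.4e-05). Both are copies of U14, a box C/D RNA needed for small-subunit ribosomal RNA processing, and the lines did not overlap for either. All 4 H1299 arrays lay above all 4 H2009 arrays for 24.5% of members and 19% of all genes. HSPA8 itself differed by 0.10 ± 0.08 (limma adjusted p = 0.385).

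Several RNAs of non-coding hosts were also higher in H1299, while others did not pass. None of the 7 RNAs of GAS5 passed (-0.17 to 0.45), nor did SNORA71A or SNORA71C of SNHG17 (0.15 to 0.16). SNORD30 of SNHG1 read 9.91, 9.92, 10.08 and 10.29 in H1299, against 8.66, 7.86, 8.01 and 7.82 in H2009, and the difference was 1.96 ± 0.18 (limma adjusted p = 0.000165). SNORD28 of the same host differed by 1.42 ± 0.20 (limma adjusted p = 0.0015). SNORD12C of ZFAS1 read 8.69, 8.50, 8.56 and 8.44 in H1299, against 7.0, 6.22, 6.95 and 7.01 in H2009, a difference of 1.75 ± 0.17 (limma adjusted p = 0.000241). No H1299 array of SNORD30, SNORD28 or SNORD12C overlapped an H2009 array, and 19% of all genes had H1299 wholly above H2009. Here the host moved with the RNA, since ZFAS1 differed by 1.34 ± 0.17 (limma adjusted p = 0.000759). SNORD49A of SNHG29, at 1.56 ± 0.44 (limma adjusted p = 0.0287), overlapped between the lines through H2009 PTK7-1 at 6.28, and it missed the threshold without any 1 of 5 arrays (1.45 to 1.63, limma adjusted p = 0.0684 to 0.0933).

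SNORA28, a box H/ACA RNA in the initiation factor gene EIF5, read 5.69, 5.3, 5.57 and 5.08 in H1299, against 3.81, 3.24, 3.99 and 3.98 in H2009. Its difference of 1.65 ± 0.18 (limma adjusted p = 0.000362) stood beside one of 1.59 ± 0.11 for EIF5. SNORD52 of SNHG32 read 7.47, 7.47, 7.61 and 7.47 in H1299, against 6.18, 6.14, 5.94 and 5.68 in H2009, a difference of 1.52 ± 0.09 (limma adjusted p = 2.93e-05). SNORD54, SNORD1A and SNORD58A were higher by 1.59 ± 0.24, 1.56 ± 0.21 and 1.55 ± 0.15 (limma adjusted p = 0.00169, 0.00109 and 0.000219). SNORD13, with a promoter of its own, was higher by 0.71 ± 0.12 (limma adjusted p = 0.00264).

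The 5 members outside the clusters that were lower in H1299 at the threshold were SCARNA6, SCARNA5, SCARNA9, SCARNA4 and SNORA21, so 4 of them are Cajal body RNAs. SCARNA6 and SCARNA5 share the host ATG16L1, an autophagy gene. SCARNA6 read 6.88, 5.80, 6.60 and 6.62 in H1299, against 7.83, 7.70, 7.62 and 7.41 in H2009, a difference of -1.16 ± 0.22 (limma adjusted p = 0.00533). SCARNA5 read 6.44, 5.68, 6.39 and 6.34 in H1299, against 7.07, 7.38, 7.13 and 6.99 in H2009, a difference of -0.93 ± 0.17 (limma adjusted p = 0.00497). The lines were apart for both, as they were in that direction for 16.2% of all genes. ATG16L1 differed by -0.95 ± 0.09 (limma adjusted p = 0.000258). Of the 16 SCARNA genes, 3 were higher and 4 lower at the threshold (43.8%, against 36.2% of all genes), with a median of 0.11.

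Hosts were compared with their RNAs between the lines as well. Of the 67 measured hosts, 25 passed, 22 higher and 3 lower in H1299, against 36.2% of all genes called. Of all members past the threshold, 60 were higher and 24 lower, so many pairs would share a direction in any case. Members in 1 host were counted each on their own. Of 40 members that passed and had a measured host, 19 had a host that also passed, 18 in the same direction. SNORD96B was the exception, at 0.44 ± 0.13, while its host AMMECR1 differed by -0.79 ± 0.19 (limma adjusted p = 0.0135). The median member difference over the 88 pairs was 0.32 and that of the hosts 0.18, with Pearson r of 0.517. Of the 22 measured protein genes, 7 were higher and 3 lower in H1299 at the threshold, where 19.6% of all genes were higher and 16.6% lower. They included fibrillarin (FBL), the box C/D methyltransferase, at 0.66 ± 0.08 (limma adjusted p = 0.000631), dyskerin at 0.60 ± 0.10 (limma adjusted p = 0.00278) and coilin (COIL), the scaffold of Cajal bodies, at 0.60 ± 0.09 (limma adjusted p = 0.00224). Of the 24 other small RNAs, 4 were higher and 4 lower at the threshold, to be read against the same shares.

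SNORD116 had the largest line difference. This cluster lies in SNHG14 within the imprinted Prader-Willi region, is expressed from the paternal chromosome, and has no known ribosomal RNA target. All 20 copies read between 2.28 and 3.86 on the 4 H1299 arrays, whereas in H2009 they ran from 2.74 to 11.48. At the threshold 19 of 20 copies were lower in H1299 (95%, against 16.6% of all genes), 16 of them by more than 2-fold. For 19 the lines did not overlap, while 16.2% of all genes had all 4 H1299 arrays below all 4 H2009 arrays. The median difference was -3.19. Since the H1299 values lie at the bottom of the scale, where array values are compressed, these log2 differences are not a measure of the full ratio.

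SNORD116-14 read 2.64, 2.69, 2.66 and 2.67 in H1299, against 11.19, 10.40, 10.59 and 10.79 in H2009, a difference of -8.07 ± 0.17 (limma adjusted p = 1.88e-07). SNORD116-15 read 3.57, 3.78, 3.52 and 3.78 in H1299, against 11.48, 11.02, 11.15 and 11.18 in H2009, a difference of -7.55 ± 0.13 (limma adjusted p = 1.21e-07). The lines were far apart for both. SNORD116-10 was the copy that did not pass, at 3.0, 2.84, 2.92 and 2.94 in H1299 and 2.99, 2.74, 2.96 and 3.09 in H2009, a difference of -0.02 ± 0.10 (limma adjusted p = 0.918). The copies thus ranged in H2009 from the level seen in H1299 to that of the brightest members, and with shared sequence it was not tested which copies the probes read.

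**Figure D5:**
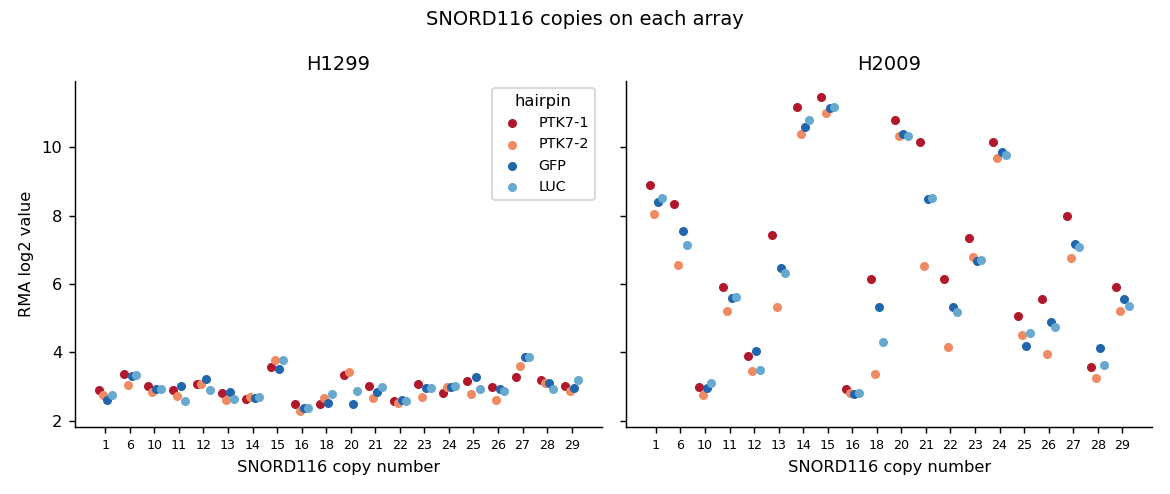
RMA log2 value (vertical axis) of each measured SNORD116 copy (horizontal axis, by copy number) on the 4 arrays of H1299 (left) and of H2009 (right), coloured by hairpin. All H1299 points lie between 2.28 and 3.86, while H2009 points reach 11.48 and PTK7-1 is highest for 17 of 20 copies. Over all 192 members, PTK7-1 lay above both controls in H2009, a looser measure, for 71.9%.

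Within H2009 the hairpins were ordered too. PTK7-1 was the highest of the 4 arrays for 17 of 20 copies and PTK7-2 the lowest for 17, although near-identical copies are not separate evidence. The highest and lowest of 4 arrays were not counted for other members, so whether the order is particular to this cluster was not tested. The shares that follow use a looser measure, and those of all members include these copies. In H2009 PTK7-1 lay above both controls for 71.9% of all members and 40% of all genes. PTK7-2 lay below both controls for 47.9% of all members and 33.5% of all genes. The median over the copies was 6.74 with PTK7-1 and 5.27 with PTK7-2, against 6.03 with GFP and 5.98 with LUC. No copy passed in PTK7-1 minus PTK7-2 averaged over both lines, where all 20 were higher and the median was 0.44. In H1299, near the bottom of the scale, the medians were 3.0 with PTK7-1 and 2.76 with PTK7-2, against 2.95 with GFP and 2.91 with LUC.

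Neighbouring genes went either way. SNORD115, in the same host SNHG14, stayed near the bottom in both lines with a median line difference of 0.00 and 0 of 20 copies past the threshold. UBE3A, whose gene overlaps SNHG14 on the opposite strand, read 8.42 to 8.52 in H1299 and 6.28 to 6.71 in H2009, a difference of 1.98 ± 0.08 (limma adjusted p = 4.36e-06). PWAR6, which also overlaps SNHG14, read 2.50 to 2.75 in H1299 and 2.99 to 3.55 in H2009, a difference of -0.74 ± 0.13 (limma adjusted p = 0.0034). Upstream, MKRN3 was higher in H1299 by 1.02 ± 0.09 (limma adjusted p = 0.000124), and NDN and MAGEL2 read no higher than 4.29 on all arrays and did not pass. Of 5 genes on the other side of SNHG14, ATP10A was lower in H1299 at -0.37 ± 0.10 (limma adjusted p = 0.0249), and the other 4 did not pass. SNORD113 and SNORD114, of the imprinted region of chromosome 14, had 0 of 6 copies past the threshold and a median line difference of 0.08.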

How the data were processed

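The deposited table holds log2 expression, which the authors obtained by RMA (background correction, normalization between arrays, probe summary); R 2.14.0 is the version named per the submitters' processing notes. Of 32321 probe sets, 19158 had 1 gene symbol in the array annotation, 1388 had several and 11775 were not listed. The brightest probe set per gene left 18404 genes. A further 63 probe sets name such an RNA beside other genes and were not used. Host genes were taken as the gene whose RefSeq span (GRCh38.p14) contains the member, and member strand was not used here.

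Differences were tested in limma (3.58.1, R 4.3.3), with 1 mean per group over all 8 arrays. A second model, with terms for hairpin and line, gave the contrasts between hairpins. P-values were adjusted by Benjamini-Hochberg over all genes at 0.05. Both lines carry identically named hairpins, per the labels. Over all genes, deviations from the group means correlated between same-hairpin arrays (r = 0.230 for controls and 0.407 for PTK7), so blocked values are given where they move a count. Over the members alone r was only -0.013 for controls and 0.136 for PTK7. The members and lists were chosen with earlier results of these data known. Named members are SNORD13, SNORD15A, SCARNA5 and SCARNA10, the 5 brightest, up to 8 per direction by size among those past the threshold in each comparison, filled up to 6 (3 for comparisons of hairpins and of effects) by smallest unadjusted p, and the genes hosting or binding them. Members listed under a shared host or a small count were named after their values were seen. The fits were tested on simulated data. Alternatives are named in the closing section. Detection calls were not used here, and the number of arrays limits the precision. Plots come from matplotlib (3.10.9, Python 3.11.15).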

Additional observations from a re-analysis of the deposited data

How the results depend on the processing

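Alternatives were the hairpin as a block, median-centred arrays, arrays made equal in quantiles, a filter that drops the dimmest 40% of genes, averaging over probe sets, a trended prior, an additive fit, leaving out each array in turn and, chosen after seeing the data, only members outside SNORD113 to SNORD116. Counts of 0 for the averaged knockdown, for H2009 and for GFP minus LUC stayed 0 under each alternative run for them. The block was not run between hairpins, and the additive fit was run only for averaged contrasts. For H1299 and for the difference of the effects they were 0 to 1 when arrays were left out, with SNORD15A called without H1299 PTK7-1. The hairpin block left the counts of the knockdown comparisons at 0 and gave 100 members against 84 over all hairpins and 82 against 61 under control hairpins for the lines. Removing the dimmest genes left 97 members, of which 53 passed for the lines over all hairpins, where 48.1% of all genes in that fit were called. The median under controls was then 0.51, against 0.29 without the filter. Leaving out an array gave 60 to 96 over all hairpins, 26 to 72 under controls (32 without H1299 GFP, H1299 LUC or H2009 GFP and 26 without H2009 LUC) and 0 to 23 between the PTK7 hairpins, where the other settings gave 12 to 18. In those other settings between the PTK7 hairpins, 3.29% to 8.3% of all genes were called. Medians between the PTK7 hairpins ran from 0.26 to 0.48 over all settings. SNORA70C, not past the threshold between the PTK7 hairpins, ran from -0.47 to 0.064 when arrays were left out, and it was above 0 without H1299 PTK7-1 (0.009) and without H1299 PTK7-2 (0.064). The cause was not tested. Signals near the bottom of the scale limit what SNORD113 to SNORD115 can show.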
